A study of Mus musculus with 9 samples.

Results

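The proteasome genes described here are those of the constitutive complex, which most cells carry, together with its activators. They were chosen by name: every listed gene whose symbol starts with Psma, Psmb, Psmc, Psmd or Psme and a number, without the immunoproteasome genes Psmb8, Psmb9 and Psmb10 and without names marked as pseudogenes. The rule found 39 of 15228 genes. Of these, 14 belonged to the core (Psma and Psmb), 21 to the regulatory part (Psmc and Psmd) and 4 to the activators (Psme). The rule uses names and no measured value, although it was set with earlier results of these data known. One of the 21, Psmc3ip, matched only by its symbol, since it encodes a cofactor of meiotic recombination and no proteasome subunit.

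The proteasome is the protease that degrades most ubiquitin-tagged proteins of a cell. Its core is a barrel of stacked rings, in which the outer alpha rings (Psma) gate the entry and the inner beta rings (Psmb) hold the active sites. The regulatory particle caps the barrel, and its base of ATPases (Psmc) unfolds substrates while its other subunits (Psmd) bind ubiquitin chains and cut them off. Activators (Psme) cap the core in place of the regulatory particle. Psme1 and Psme2 encode the subunits of the interferon-inducible activator PA28αβ, which acts in antigen processing, while Psme3 encodes the mostly nuclear PA28γ and Psme4 encodes PA200. In neurons the ubiquitin–proteasome system takes part in protein turnover at synapses and in the response to axon injury.

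The libraries came from wild-type C57BL/6J mice, young adults of both sexes by the methods of the study, whose retinal cells were dissociated and sorted by flow cytometry as retinal ganglion cells (RGCs). The 3 groups were uninjured retinas (Ctrl), retinas at day 3 after optic nerve crush with PBS (ONC), and retinas at day 3 after the same crush with TPEN, a membrane-permeable chelator of zinc (TPEN). The agents were injected into the eye right after the crush. Each group had 3 libraries, and no source used here says that they stem from different mice, so that p-values measure the spread between libraries, which may be technical. No group received TPEN without a crush. No injection is described for Ctrl, so that ONC/Ctrl does not separate the crush from the injection.

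Facts of the libraries as a whole bear on every level given here. The 9 libraries held 19946993 to 23109754 reads, as worked out from the deposited values. Levels are in RPKM, reads per kilobase of exon, scaled to the size of the library. Transcripts of other retinal cells were abundant. The RGC genes Rbpms, Pou4f1 and Slc17a6 were all below 0.7 RPKM in each library, with a highest value of 0.688 RPKM for Rbpms in Ctrl, whereas Nefl, a neurofilament gene that RGCs express strongly, stood at 193 to 271 RPKM. Rod genes dominated, and the summed level of 5 rod markers ranged from 15305 to 18338 RPKM. RGCs in this text are the cells of that sorting gate. The 10 markers of microglia and macrophages summed to 3.84 to 4.28 RPKM in the Ctrl libraries, 50.1 to 54.2 RPKM in the ONC libraries and 21.3 to 22.2 RPKM in the TPEN libraries. In bulk libraries, more cells of a type and more RNA per cell cannot be told apart.

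The sequences around the start sites of 3 genes are shown first, because 1 of them, Psme1, differed between the groups far more than the other members, Psme2 encodes its partner, and Psmd4 was the other gene with both a group difference and the same motif. Each sequence holds the 100 bases before the RefSeq start site and the first 20 bases of the transcript, read 5′ to 3′ on the strand of the gene, in GRCm38.p6. Capitals mark a match to the interferon response element, searched as GAAANNGAAA on both strands.
Psme1: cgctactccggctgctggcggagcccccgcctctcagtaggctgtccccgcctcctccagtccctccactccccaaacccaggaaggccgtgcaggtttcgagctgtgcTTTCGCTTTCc
Psme2: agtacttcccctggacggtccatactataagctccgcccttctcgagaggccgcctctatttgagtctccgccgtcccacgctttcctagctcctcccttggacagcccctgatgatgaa
Psmd4: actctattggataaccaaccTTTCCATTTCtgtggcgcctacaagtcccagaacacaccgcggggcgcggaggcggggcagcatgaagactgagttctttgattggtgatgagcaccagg
The Psme1 sequence lies at chr14:55578394-55578513 on the plus strand, the Psme2 sequence at chr14:55591082-55591201 on the minus strand and the Psmd4 sequence at chr3:95042595-95042714 on the minus strand. The RefSeq start of Psme1 lies inside the deposited gene, which spans 55578123 to 55581529 on chromosome 14. Psme2 is its neighbour on the opposite strand, at 55587441 to 55591113. The match in Psme1 covers bases 10 to 19 of the transcript, and that in Psmd4 lies 80 to 71 bases before the start. Psme2 has no match in the window searched.

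RefSeq start sites with a window of 300 bases, 250 before and 50 from the start, were at hand for 33 of the 39 genes. The interferon response element was found in 4 of the 33 windows (Psmb3, Psmd4, Psmd9 and Psme1), or 12.1%, and in 3.44% of the 32851 windows of all genes. The GAS element, the site of STAT dimers searched as TTCNNNGAA, was found in 1 (Psmd2), or 3.03%, against 8.30% of all windows. The antioxidant response element TGACNNNGC, which the NFE2L1 and NFE2L2 factors bind, was found in 6 (Psmb5, Psmb6, Psmc6, Psmd12, Psmd9 and Psme4), or 18.2%, against 12.4%. The CCAAT box was found in 13, or 39.4%, against 37.4%. All motifs were searched on both strands. A match describes letters in these windows and is not a measured binding site, and 3 of the 4 genes with an interferon response element had no DEG call.

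Every member was expressed. Mean levels over the 9 libraries ran from 3.19 RPKM for Psmd9, a chaperone of base assembly, to 128 RPKM for Psmc1, an ATPase of the base, so that all 39 passed the minimum mean of 0.5 RPKM used for testing. Reads per gene and library ranged from 84 to 4864. The median of the mean levels was 16.2 RPKM in the core, 20.7 RPKM in the regulatory part and 10.5 RPKM among the activators. Within the core, Psma4 was highest at 48.5 RPKM and Psmb3 lowest at 4.39 RPKM. The genes of the catalytic subunits stood close together, with Psmb5 (chymotrypsin-like site) at 10.99 RPKM, Psmb6 (caspase-like site) at 16.3 RPKM and Psmb7 (trypsin-like site) at 10.8 RPKM. Among the activators, Psme1 was highest at 19.5 RPKM and Psme4 lowest at 4.84 RPKM. Subunits of 1 ring were thus read at levels far apart, although the assembled particle holds them in fixed proportion. RPKM divides by the deposited exon length, which within the alpha ring was 944 bases for Psma2 and 2952 for Psma1. Gaps between genes therefore depend on that length as well, to an extent that was not tested. The median coefficient of variation within a group was 6.24% in the core, 3.73% in the regulatory part and 5.62% among the activators, beside 4.85% for the 8537 genes at or above the level of the lowest member.

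**Figure D1:**
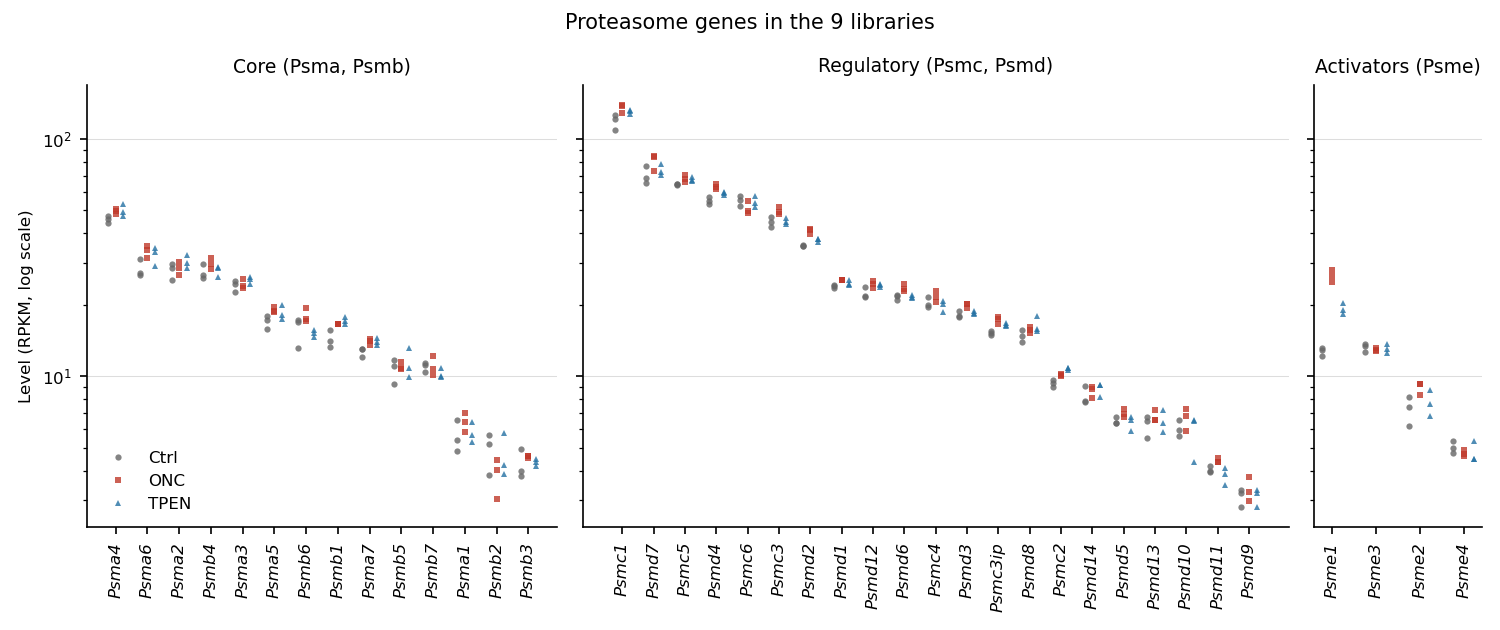
Level of each of the 39 genes (RPKM, log scale) in each library, grouped by core, regulatory part and activators and ordered by mean level; grey circles are Ctrl, red squares ONC and blue triangles TPEN. Groups lie on top of each other for most genes, and Psme1 shows the widest gap, with 12.2 to 13.1 RPKM in Ctrl and 24.9 to 28.0 RPKM in ONC.

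The activators did not act as 1 group. Psme1 had 13.1, 12.2 and 12.9 RPKM in the Ctrl libraries, 28.0, 26.4 and 24.9 RPKM in the ONC libraries and 19.1, 20.4 and 18.3 RPKM in the TPEN libraries. The 3 groups did not overlap, with ONC highest and TPEN between ONC and Ctrl. The log2 fold change of Psme1 was 1.05 in ONC/Ctrl (95% interval 0.92 to 1.17, standard error 0.06), with a limma adjusted p of 1.54e-06. Every fold change here is on the log2(RPKM + 0.1) scale. It was the DEG of the module: the other 38 genes missed a fold change of 1.5 or an adjusted p under 0.05. Of all 13566 genes tested, 4.58% were DEGs with a higher level in ONC. Psme1 fell in TPEN/ONC by 0.45 on the log2 scale (95% interval -0.58 to -0.33, standard error 0.06), with a limma adjusted p of 0.00159 and a change below 1.5-fold. It stayed higher in TPEN/Ctrl, by 0.59 (standard error 0.06), with a limma adjusted p of 1.08e-04, where 3.45% of all genes were DEGs with a higher level. Its exons share 0.634% of their bases with Emc9 on the opposite strand, which was not called in ONC/Ctrl or TPEN/ONC and was higher in TPEN/Ctrl (0.39, limma adjusted p = 0.043). The comparisons share libraries, so that their values are given side by side and do not count as independent. The excess of the TPEN libraries over the Ctrl mean was 47.8% ± 7.69 (SD, n = 3) of the excess of the ONC mean.

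Psme2, the partner of Psme1 in PA28αβ, had 8.22, 6.16 and 7.45 RPKM in Ctrl, 9.25, 9.26 and 8.34 RPKM in ONC and 6.84, 8.78 and 7.67 RPKM in TPEN. The ONC libraries all lay above the Ctrl libraries, the closest at 8.34 against 8.22 RPKM, while TPEN overlapped both. Its log2 fold change was 0.30 in ONC/Ctrl (95% interval 0.04 to 0.56, limma adjusted p = 0.103) and -0.21 in TPEN/ONC (95% interval -0.47 to 0.05, limma adjusted p = 0.334). With voom on the recovered reads, the adjusted p in ONC/Ctrl was 0.0423. The transcript of Psme2 has a near copy, Psme2b, so that its reads could be split between the genes. The ratio of Psme1 to Psme2, formed after the values were seen and given without a test, was 1.60, 1.99 and 1.72 in Ctrl, 3.03, 2.85 and 2.98 in ONC and 2.79, 2.33 and 2.39 in TPEN. Psme1 exceeded its partner in every library, and the ratios of ONC lay above those of both other groups.

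Psme3 and Psme4 gave no call. For Psme3 the Ctrl libraries averaged 13.3 ± 0.503 RPKM, those of ONC 13.0 ± 0.163 RPKM and those of TPEN 13.1 ± 0.580 RPKM (SD, n = 3 each). Its log2 fold change in ONC/Ctrl was -0.03, with a 95% interval from -0.14 to 0.07. Psme4 stood at 5.03 ± 0.291, 4.73 ± 0.138 and 4.77 ± 0.494 RPKM in the same order, with a log2 fold change of -0.09 in ONC/Ctrl and a 95% interval from -0.27 to 0.10. Both intervals leave out a change of 1.5-fold in either direction. An exact permutation test over the 3 groups, with 280 distinct groupings and made for each of the 4 genes without adjustment, gave p = 0.00357 for Psme1, the smallest value it can give. The exact test gave p = 0.139 for Psme2, p = 0.704 for Psme3 and p = 0.536 for Psme4. Between 2 groups of 3 libraries the smallest exact p is 0.1.

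**Figure D2:**
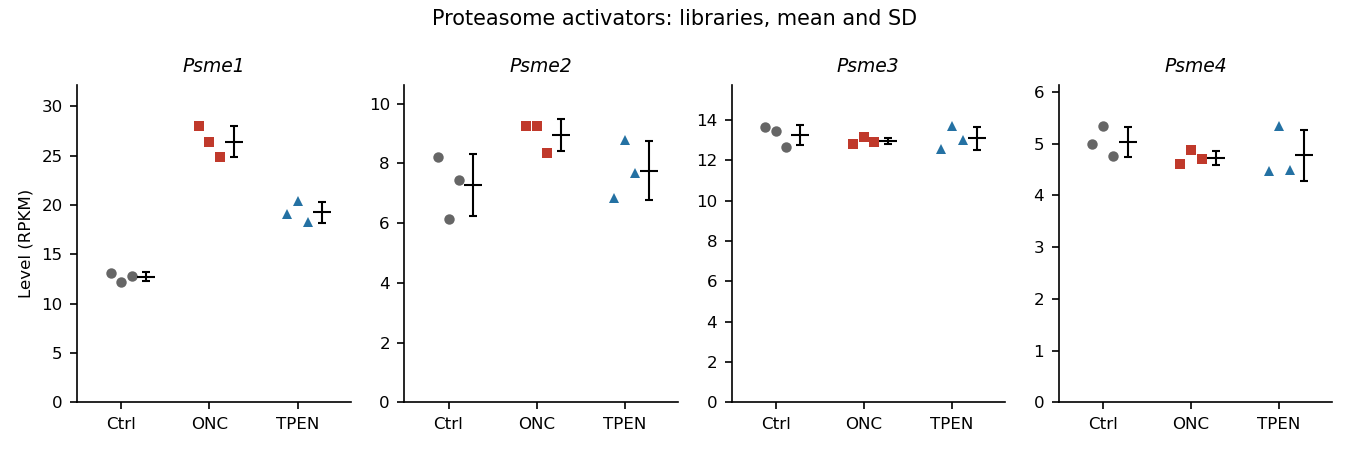
Levels of the 4 activator genes (RPKM, linear axes from 0, each gene on its own scale) in the 3 libraries of Ctrl, ONC and TPEN, with the mean and SD (n = 3) in black beside the points. Psme1 separates the 3 groups, Psme2 lies higher in ONC than in Ctrl with TPEN overlapping both, and Psme3 and Psme4 overlap throughout.

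In the core and the regulatory part, differences after the crush were small and leaned upward. With an adjusted p under 0.05, 9 of the 39 genes were higher in ONC than in Ctrl, beside 11.7% of all genes tested and 12.7% of the 8537 genes at or above the level of the lowest member. These were 1 of 14 core genes, 7 of 21 regulatory genes and 1 of 4 activators. None was lower by limma, beside 6.97% of all genes, or by voom, beside 9.52%. At an unadjusted p under 0.05 by limma, 19 genes were higher, beside 18.4% of all genes, and 0 lower, beside 13.2%. The libraries of ONC lay wholly above those of Ctrl for 19 genes, beside 20.7% of all genes, and wholly below for 0, beside 15.8%. The median log2 fold change was 0.12 in the core, 0.12 in the regulatory part and 0.14 among the activators, beside 0.02 over all genes tested. Fitted values were above 0 for 12 of 14, 20 of 21 and 2 of 4 genes. For 37 of the 39 genes the 95% interval lay within a change of 1.5-fold in either direction, the exceptions being Psme1 and Psmb2, which had few reads and an interval from -0.78 to 0.09.

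**Figure D3:**
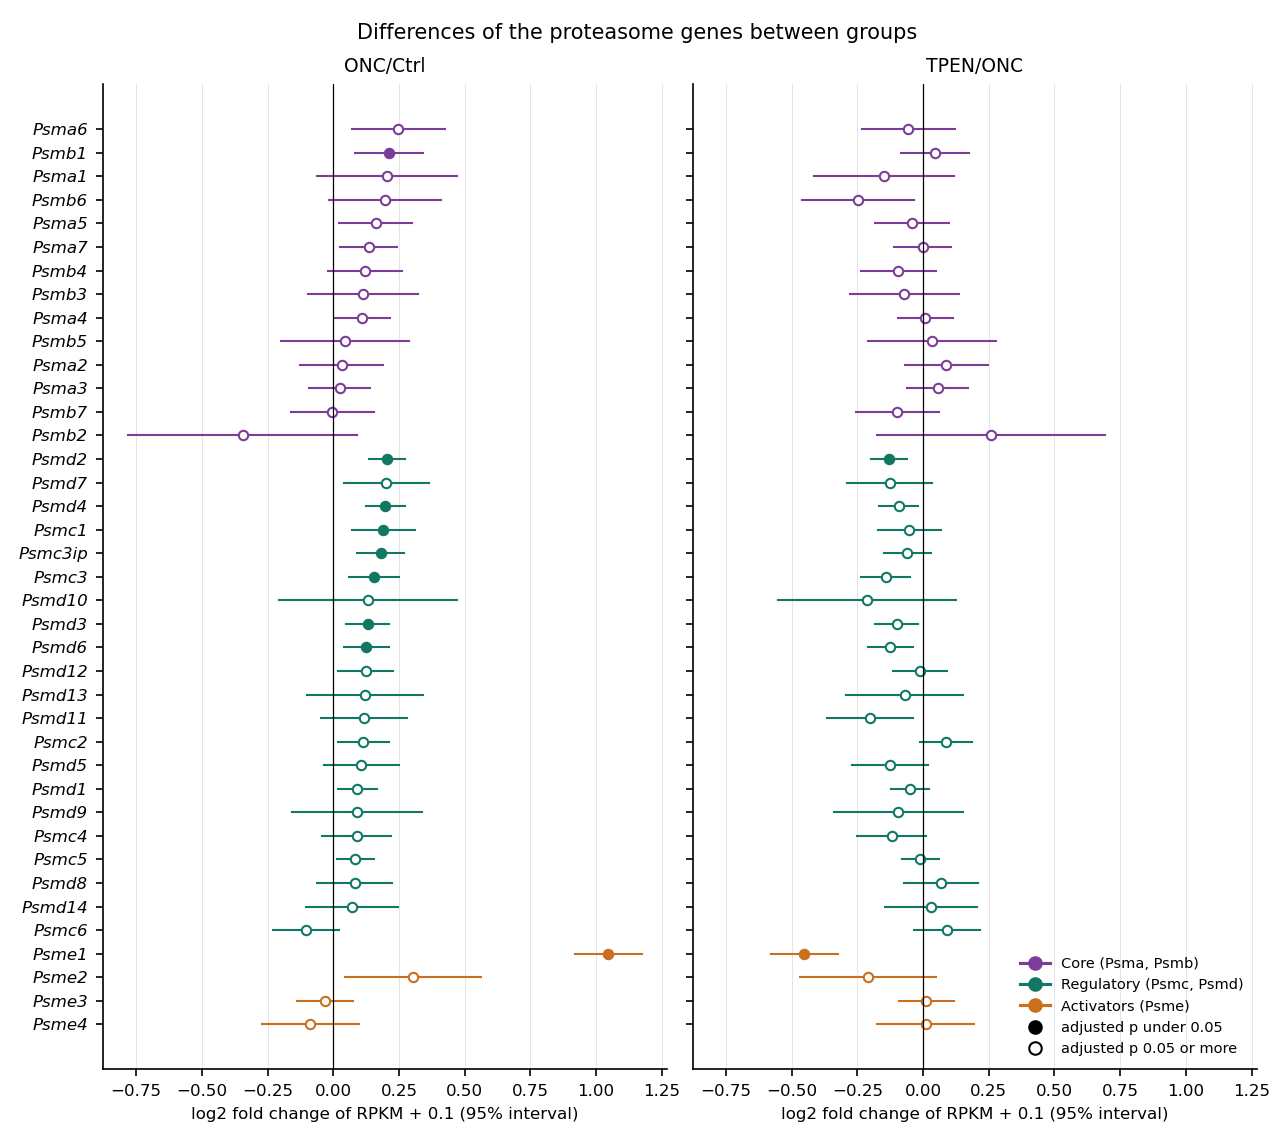
Log2 fold changes of the 39 genes with 95% intervals in ONC/Ctrl (left) and TPEN/ONC (right), on the log2(RPKM + 0.1) scale; filled points have a limma adjusted p under 0.05. In ONC/Ctrl 34 points lie above 0, most under 0.25, with Psme1 apart at 1.05, and in TPEN/ONC 27 points lie below 0.

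The same lean was seen library by library. The median core gene stood at 98.2% to 103% of its Ctrl mean in the Ctrl libraries, at 107% to 109% in the ONC libraries and at 102% to 107% in the TPEN libraries. The median regulatory gene stood at 98.4% to 100.3%, 107% to 109.6% and 103% to 106%. For the 4 activators the ranges were 98.3% to 103%, 106% to 113% and 94.3% to 113%. Core and regulatory medians of every ONC library were thus above those of every Ctrl library. The TPEN medians lay below those of ONC in both parts, in the core by the narrow gap from 106.9% to 107.04%, and the difference between the parts was not tested. Marker sums of retinal cells moved as well. Those of 8 RGC markers were 329 to 339 RPKM in Ctrl, 345 to 365 RPKM in ONC and 265 to 278 RPKM in TPEN. Nefl, at a mean of 258 RPKM in Ctrl, made up most of this sum, which does not describe the RGC markers as a set. Of the 8, 5 reached the minimum mean for testing. In ONC/Ctrl 3 of these 5 lay wholly higher and 1 wholly lower, beside 20.7% and 15.8% of all genes tested. Of those too low to be tested, Slc17a6 lay wholly higher and Rbpms and Pou4f1 wholly lower. In TPEN/ONC 1 of the 5 lay wholly higher and 3 wholly lower, beside 12.5% and 15.6%. The sums of 4 Müller glia markers were, in the same order of groups, 309 to 322, 243 to 246 and 212 to 225 RPKM. Glul and Rlbp1 made up most of this sum, which does not describe the 4 as a set. In ONC/Ctrl 1 (Slc1a3) lay wholly higher and 3 wholly lower, beside 20.7% and 15.8% of all genes tested. In TPEN/ONC 1 (Aqp4) lay wholly higher and 2 wholly lower, beside 12.5% and 15.6%. The sums of 4 cone markers were, in the same order of groups, 96.9 to 102, 84.0 to 91.8 and 147 to 149.8 RPKM. The part of these markers in the lean of the proteasome genes was not tested.

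Among the core genes, Psmb1, a structural subunit of the beta ring, had the call in ONC/Ctrl. It had 13.3, 15.6 and 14.1 RPKM in Ctrl, 16.6 RPKM in each ONC library, and 16.6, 17.0 and 17.9 RPKM in TPEN. The crushed groups both lay above Ctrl, with a log2 fold change of 0.21 in ONC/Ctrl (limma adjusted p = 0.0297) and 0.26 in TPEN/Ctrl (limma adjusted p = 0.016). Both calls were lost under voom. Psma6, an alpha ring gene, had the largest fitted rise of the core, 0.25 in ONC/Ctrl, and narrowly missed the threshold (limma adjusted p = 0.0565). Its Ctrl libraries had 26.6, 27.3 and 31.2 RPKM and its ONC libraries 34.2, 31.5 and 35.4 RPKM, so that the groups nearly touched at 31.2 and 31.5 RPKM. Psmb2 had the lowest fitted value, -0.35, from 5.19, 3.85 and 5.67 RPKM in Ctrl to 3.04, 4.01 and 4.45 RPKM in ONC. These groups overlapped, and with 84 to 140 reads a library Psmb2 was among the least precisely measured members.

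The 7 alpha ring genes all had fitted values above 0 in ONC/Ctrl, from 0.02 to 0.25. By limma 0 were called, beside 11.7% of all genes called higher, and 4 were higher at an unadjusted p under 0.05, beside 18.4%. Voom called 1 (Psma6) higher, beside 14.2%. The genes of the catalytic beta subunits gave no call in any comparison by limma or voom. Psmb5 stood at 11.7, 11.1 and 9.32 RPKM in Ctrl and at 10.8, 10.7 and 11.4 RPKM in ONC, a log2 fold change of 0.04 with an interval from -0.20 to 0.29. Psmb7 had a value of -0.003 with an interval from -0.16 to 0.16. Psmb6 had 13.2, 16.9 and 17.2 RPKM in Ctrl, 19.3, 17.2 and 17.5 RPKM in ONC and 15.6, 15.1 and 14.6 RPKM in TPEN. Its TPEN libraries lay below all ONC libraries, but the log2 fold change of -0.25 in TPEN/ONC did not pass (limma adjusted p = 0.161, unadjusted p = 0.0279). Parts of the exons of Psmb5 and Psmb7 overlap other listed genes (12.5% with Mir686 and 11.8% with Nek6), so that their reads are uncertain to that extent.

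Among the regulatory genes, Psmd2 and Psmd4 had the lowest adjusted p in ONC/Ctrl. Psmd2, a scaffold of the base that docks ubiquitin receptors, had 35.3, 35.5 and 35.6 RPKM in Ctrl, 39.7, 41.3 and 41.7 RPKM in ONC and 37.8, 37.8 and 36.7 RPKM in TPEN. The groups did not overlap, and TPEN lay between the others. The log2 fold change was 0.21 (standard error 0.03) in ONC/Ctrl and -0.13 (standard error 0.03) in TPEN/ONC, with limma adjusted p-values of 0.00116 and 0.0328. Psmd4, a ubiquitin receptor of the base, had 54.8, 53.0 and 56.9 RPKM in Ctrl, 61.5, 64.3 and 63.0 RPKM in ONC and 59.9, 59.1 and 58.1 RPKM in TPEN. It rose by 0.20 (standard error 0.03) in ONC/Ctrl, with a limma adjusted p of 0.00245, and its value of -0.09 in TPEN/ONC did not pass (limma adjusted p = 0.134). Gm5422 is a near copy of the Psmd2 transcript, and Psmd4 has none among the annotated transcripts.

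The other regulatory calls in ONC/Ctrl were those of the ATPase genes Psmc3 (0.15, limma adjusted p = 0.0293) and Psmc1 (0.19, limma adjusted p = 0.0345), the lid genes Psmd3 (0.13, limma adjusted p = 0.0322) and Psmd6 (0.13, limma adjusted p = 0.0489), and Psmc3ip (0.18, limma adjusted p = 0.0111). Each of these 5 genes had all ONC libraries above all Ctrl libraries. Psmc3ip shares 21.2% of its exon bases with Mlx on the opposite strand and Psmc3 shares 8.25% with Slc39a13, and neither of those neighbours was called. Psmd7, a lid gene, had a fitted rise as large as that of Psmd4, 0.20, but its Ctrl libraries spread from 65.5 to 76.7 RPKM and overlapped ONC at 73.6 to 84.8 RPKM (limma adjusted p = 0.0832). Psmd14, the deubiquitinase of the lid, stood at 9.10, 7.80 and 7.84 RPKM in Ctrl and 8.81, 8.12 and 9.03 RPKM in ONC, with overlapping groups. The base chaperones Psmd5, Psmd9 and Psmd10 had fitted values of 0.11, 0.09 and 0.13, with adjusted p-values of 0.294, 0.631 and 0.604 by limma. Psmc6 was the regulatory gene with a fitted value below 0, at -0.10 with an interval from -0.23 to 0.02.

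Several calls of small size in ONC/Ctrl depended on single libraries, whereas those of Psmd2, Psmd4 and Psmc3ip were kept with any 1 library left out. Without Ctrl replicate 1, 4 genes were higher in ONC/Ctrl in place of 9, and without ONC replicate 1 or ONC replicate 2 there were 5. Psme1, Psmd2 and Psmd4 kept an adjusted p under 0.05 in ONC/Ctrl in all 17 alternative fits, of which 9 leave out a library. Psmc3ip kept it in 16, Psmc3 in 10, Psmb1 and Psmd3 in 9, Psmc1 in 8 and Psmd6 in 3. Voom called 9 genes higher too, beside 14.2% of all genes, with Psma6, Psmd7 and Psme2 in place of Psmb1, Psmc3ip and Psmd6.

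**Figure D4:**
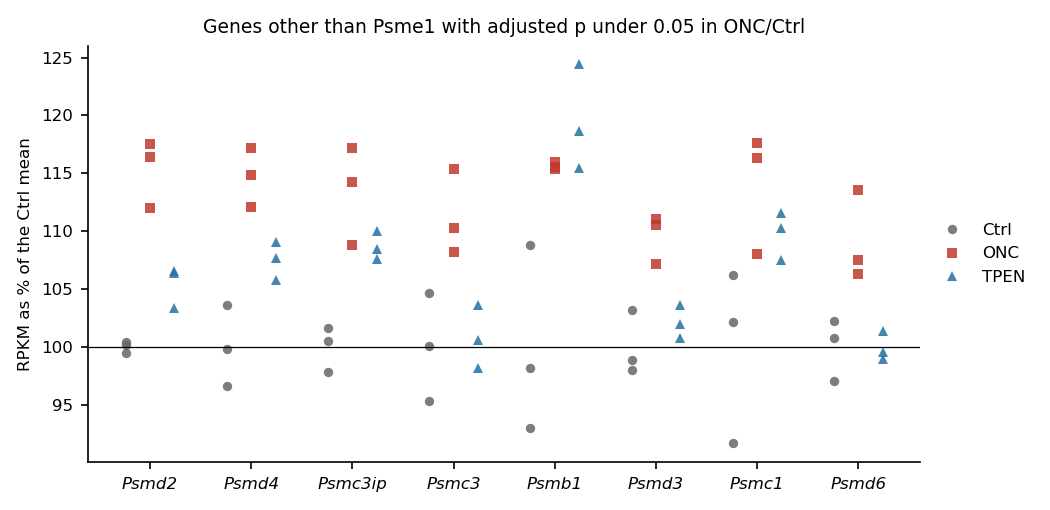
Levels of the 8 genes other than Psme1 with a limma adjusted p under 0.05 in ONC/Ctrl, as a percentage of the Ctrl mean of the gene, for each library of Ctrl (grey circles), ONC (red squares) and TPEN (blue triangles); the axis does not start at 0. All ONC libraries lie above all Ctrl libraries, and TPEN lies below ONC for Psmd2, Psmd4, Psmc3, Psmd3 and Psmd6 but overlaps it for Psmb1, Psmc1 and Psmc3ip.

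In TPEN/ONC, which asks what the zinc chelator changed after the crush, 2 of the 39 genes were lower, Psme1 and Psmd2, beside 4.14% of all genes tested. None was higher by limma, beside 3.24% of all genes, or by voom, beside 5.45%. Voom called 3 genes lower (Psme1, Psmd2 and Psmc3), beside 6.99%. At an unadjusted p under 0.05 by limma, 8 genes were lower, beside 12.3% of all genes, and 0 higher, beside 9.63%. The 8 were 1 of 14 core genes, 6 of 21 regulatory genes and Psme1. The TPEN libraries lay wholly below ONC for 10 genes, beside 15.6% of all genes, and wholly above for 1 (Psmc2), beside 12.5%. The median log2 fold change was -0.02 in the core, -0.09 in the regulatory part and -0.10 among the activators, beside -0.01 over all genes tested. The largest regulatory values were -0.21 for Psmd10, -0.20 for Psmd11 and -0.14 for Psmc3, none of which passed (limma adjusted p = 0.464, 0.138 and 0.075). For Psmd10, TPEN replicate 3 alone was low, with 4.33 RPKM beside 6.57 and 6.50 RPKM. In the core, Psmb2 (0.26), Psmb6 (-0.25) and Psma1 (-0.15) had the largest values, and none passed. The call of Psmd2 was lost in 10 of 17 alternative fits, among them those without Ctrl replicate 1 or 2, ONC replicate 2 or 3, or any TPEN library (adjusted p 0.051 to 0.117), whereas that of Psme1 was kept in all 17. For 38 of 39 genes the interval lay within a change of 1.5-fold in either direction, the exception being Psmb2.

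In TPEN/Ctrl, 3 genes were higher, beside 8.36% of all genes tested: Psme1, Psmb1 and Psmc2, a base ATPase. Psmc2 had 9.67, 8.98 and 9.41 RPKM in Ctrl, 10.21, 10.03 and 10.14 RPKM in ONC and 10.6, 10.8 and 10.8 RPKM in TPEN. Its groups did not overlap, and unlike Psmd2 it was highest in TPEN, with a log2 fold change of 0.20 in TPEN/Ctrl (limma adjusted p = 0.0142). Without Ctrl replicate 2 the adjusted p of Psmc2 was 0.052, and Psmb1 lost its call without Ctrl replicate 1 or TPEN replicate 3. None of the 39 was lower by limma, beside 5.01% of all genes, by voom, beside 6.98%, or at an unadjusted p under 0.05 by limma (0 genes), beside 11.4%. The TPEN libraries lay wholly above Ctrl for 9 genes, beside 18.1%, and wholly below for 0, beside 13.3%. Voom called 4 genes higher, beside 10.5% of all genes: Psmc1, Psmc2, Psmd4 and Psme1.

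The other genes of the pathway were taken from lists drawn up with earlier results of these data known. Of the immunoproteasome, whose subunits replace the catalytic ones after interferon, Psmb8 and Psmb10 were listed. Psmb8 had 0.489, 0.348 and 0.437 RPKM in Ctrl, 1.62, 2.13 and 1.94 RPKM in ONC and 0.878, 1.32 and 1.10 RPKM in TPEN. The groups did not overlap and had the same order as those of Psme1, with log2 fold changes of 1.93 in ONC/Ctrl (limma adjusted p = 5.19e-05) and -0.75 in TPEN/ONC (limma adjusted p = 0.0334). The call of Psmb8 in ONC/Ctrl was kept with any 1 library left out. That in TPEN/ONC was lost without any 1 of the ONC libraries, TPEN replicate 1 or TPEN replicate 3 (adjusted p from 0.0516 to 0.118). These levels rest on 22 to 134 reads, and the constitutive counterpart, Psmb5, stayed far above them. Psmb10 had 0.406 to 1.23 RPKM in Ctrl and 1.10 to 1.48 RPKM in ONC, with overlapping groups and no call. Of 14 genes for assembly and associated factors, among them the core chaperone Pomp (0.23 in ONC/Ctrl, limma adjusted p = 0.183), 0 were called by limma in any comparison. In ONC/Ctrl 2 of them were higher at an unadjusted p under 0.05, beside 18.4% of all genes, and voom called 1 (Shfm1), beside 14.2%. In TPEN/ONC 2 were lower at an unadjusted p under 0.05, beside 12.3%, and voom called 1 (Adrm1), beside 6.99%. In TPEN/Ctrl 1 was higher at an unadjusted p under 0.05, beside 2136 of all 13566 genes tested. Voom called 0 there, beside 10.5% higher and 6.98% lower.

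Of 9 genes of the factors that control proteasome genes and their processing, Nfe2l1 was called by limma, higher in ONC/Ctrl, beside 11.7% of all genes tested. It encodes a factor that raises proteasome gene transcription when proteasome activity is short. Nfe2l1 had 35.4, 34.9 and 37.5 RPKM in Ctrl, 39.2, 40.6 and 39.7 RPKM in ONC and 36.4, 36.6 and 36.0 RPKM in TPEN. ONC lay above both other groups, with log2 fold changes of 0.15 in ONC/Ctrl (limma adjusted p = 0.0143) and -0.13 in TPEN/ONC (limma adjusted p = 0.051, voom call). The call in ONC/Ctrl was lost without either replicate 1 or 2 of Ctrl and without replicate 2 of ONC (adjusted p from 0.0541 to 0.0575). Nfe2l2, the related factor of the oxidative stress response, had 0.09 in ONC/Ctrl (limma adjusted p = 0.56). Of 9 genes of ubiquitin and its shuttles, 2 were higher in ONC/Ctrl, beside 11.7% of all genes tested. Both encode ubiquitin: Ubb (0.34) and Rps27a (0.37), with limma adjusted p-values of 0.0203 and 0.00365. The call of Ubb was lost without replicate 1 or 2 of Ctrl or of ONC (adjusted p from 0.0682 to 0.0746), and that of Rps27a was kept with any 1 library left out. They had fitted values of -0.01 and -0.08 in TPEN/ONC and gave no call there. Near copies of these genes were not looked for. No gene of this list was called in TPEN/ONC by limma, beside 4.14% of all genes lower and 3.24% higher, or by voom, beside 6.99% and 5.45%. At an unadjusted p under 0.05 by limma 1 was lower and 0 higher, beside 12.3% and 9.63%.

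Markers of microglia and macrophages and the interferon-responsive genes moved with Psme1. Their lists were drawn up with earlier results of these data known. The cone and Müller glia sums given above had other orders of the groups, and single Müller glia genes did not all follow their sum. Of 10 listed markers of microglia and macrophages, 9 were tested. All 9 were DEGs with a higher level in ONC/Ctrl (median log2 fold change 2.73), beside 4.58% of all genes tested (median of all genes 0.02). In TPEN/ONC 6 were called lower (median -0.99), beside 4.14% of all genes (median of all genes -0.01). No marker of the list was at 0, and Csf1r, for example, ranged from 0.724 to 0.930 RPKM over the Ctrl libraries, from 5.72 to 5.94 RPKM over ONC and from 3.01 to 3.61 RPKM over TPEN. Of 11 listed interferon-responsive genes, 9 were tested. In ONC/Ctrl 9 were called higher (median 1.41), beside 11.7% of all genes, and in TPEN/ONC 7 were called lower (median -0.62), beside 4.14%. Their summed level was 26.2 to 27.1 RPKM over the Ctrl libraries, 79.6 to 81.3 RPKM over ONC and 51.8 to 53.0 RPKM over TPEN. Psme1 and Psmb8 had the same order of groups as both lists. The part of microglia, macrophages or interferon in the levels of Psme1 and Psmb8 was not tested. Markers of neutrophils were not analysed here.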

How the data were processed

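RNA of cells sorted as RGCs was sequenced in 9 libraries, 3 each of Ctrl, ONC and TPEN. The libraries were prepared with a stranded mRNA kit with molecular identifiers. Per the labels and the methods of the study, reads were trimmed with Trimmomatic 0.36 and mapped with STAR to GRCm38/mm10. The counting program, the annotation, the use of strand and the treatment of identifiers are not given in the sources used here. The authors deposited RPKM values for 15228 genes, each gene's length (other values of the table), and 9 columns of their own fold changes and p-values, which were not used. RPKM divided by the value of 1 read gave whole reads for 100% of values, and library totals were worked out from them.

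Differences were tested with limma 3.58.1 (R 4.3.3) on log2(RPKM + 0.1). The 13566 genes that reached 0.5 RPKM on average entered, in all 9 libraries, with a trended variance, and p-values were adjusted over them by the Benjamini-Hochberg procedure. A called gene has an adjusted p under 0.05, and a DEG also a fold change of at least 1.5. Single activators were tested by exact permutation. Alternatives were voom (limma on the recovered reads), quantile normalization, median-of-ratios size factors, no filter or a minimum mean of 1 RPKM, a pseudocount of 1, the compared libraries only, a replicate block, and each library left out. On simulated data for ONC/Ctrl with 13128 unchanged genes, 43 of 48 genes raised 2-fold, 34 of 49 raised 1.5-fold and 17 of 49 raised 1.25-fold were called. So were 29 of 49 lowered to 0.667-fold, and 7 unchanged genes. The spread was set by a fixed formula, and fewer genes were changed than were called in the real ONC/Ctrl. These shares need not hold for the real libraries. Near copies (at least 95% identity over at least 100 bases, blastn 2.17.0) were taken from GENCODE M21, in which 32 of the 39 genes have the deposited span. Exon overlap with other listed genes was worked out from the deposited exon positions. Promoter windows are those of RefSeq.

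The genes named are all activators, the catalytic subunits, the 3 largest changes in the core and the regulatory part in ONC/Ctrl and TPEN/ONC, every DEG, the highest and lowest level of each part, and Psmc3ip, Psmd4, Psmd5, Psmd9, Psmd10 and Psmd14, with chosen pathway genes. The remaining called genes were named after their values were seen, as were the promoter sequences and the ratio of Psme1 to Psme2. The members and lists were chosen with earlier results of these data known, and some genes of the ubiquitin list are not reported here. Libraries with the same number were not paired by the labels. Correlations of their deviations from the group means ranged from -0.15 to 0.13 over 9 pairs, so no pairing was used.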

Additional observations from a re-analysis of the deposited data

How the results depend on the processing

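The calls of Psme1 in the 3 comparisons held in each of the 17 alternative fits, with log2 fold changes from 0.997 to 1.09 in ONC/Ctrl and from -0.494 to -0.409 in TPEN/ONC. The number of the 39 genes called higher in ONC/Ctrl, 9, was 5 with only the compared libraries in the fit, 5 with median-of-ratios size factors, 4 with quantile normalization, and 4 to 8 with 1 library left out. The number called lower in TPEN/ONC, 2, was 1 with quantile normalization and 1 to 3 with 1 library left out. With the replicate number as a block, 6 genes rose in ONC/Ctrl and 1 gene was lower in TPEN/ONC, and the labels give no pairing behind such a block. The median log2 fold change of core genes in ONC/Ctrl was 0.0827 with quantile normalization. For regulatory genes in ONC/Ctrl it was 0.0965 with median-of-ratios size factors and 0.0799 with quantile normalization, and in TPEN/Ctrl 0.0313 and 0.0269. In TPEN/ONC it was -0.0741 with a pseudocount of 1 and -0.053 with quantile normalization. With 1 library left out, the core median ranged from -0.0609 to 0.00882 in TPEN/ONC and from 0.0512 to 0.142 in TPEN/Ctrl, and the regulatory median from -0.0935 to -0.0586 and from 0.0384 to 0.0759. The fold changes of Psme3 and Psme4 in TPEN/ONC, neither called, ranged with 1 library left out from -0.0206 to 0.0421 and from -0.0727 to 0.0523, turning below 0 without TPEN replicate 2 and, for Psme4, also without ONC replicate 1 (-0.0095). The median of all genes moved as well. In ONC/Ctrl it was 0.0167 in the main fit, -0.0333 with quantile normalization and -0.00787 with median-of-ratios size factors. In TPEN/ONC it was -0.011, 0.00481 and -0.00621 in the same order. The cause of these differences was not tested. Genes with few reads, such as Psmb2 and Psmd10, are measured with the least precision.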
